A study of Mus musculus with 17 samples.

Results

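Immobile hindlimbs of p53 mKO mice were set against immobile hindlimbs of littermate control mice, across all genes measured in the tibialis anterior, the muscle at the front of the shin. The members are the 3 arrays titled as immobile p53 mKO limbs and the 3 titled as immobile control limbs, which makes 6 of the 17 arrays of the series. All groups are male mice aged 8 weeks whose muscles were taken at day 3. The labels do not spell out "mKO" and do not name the promoter that drives the deletion. The further groups used here are 3 mobile hindlimbs of littermate controls, and a separate transfection experiment in C57BL/6 mice with 4 muscles given a p53 plasmid and 4 given a control plasmid. No mobile p53 mKO limb was among the samples, so a difference that precedes immobilization and one in the response to it cannot be told apart. Nothing in the labels says which limbs share a mouse or whether arrays come from separate animals, so p-values measure the spread between arrays.

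p53 is a transcription factor that is stabilized by DNA damage and other stress, and it binds DNA as a tetramer at paired copies of a short palindromic motif. Its known targets stop the cell cycle (Cdkn1a), degrade p53 itself (Mdm2), repair DNA or start apoptosis. Muscle fibres do not divide, and in them p53 and Cdkn1a are studied for their part in the loss of fibre size when a limb is held still or loses its nerve.

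The arrays carry strong muscle signal. The mean log2 level of 7 skeletal muscle markers (Acta1, Ckm, Myh4, Mylpf, Tnnt3, Pvalb and Des) lay between 15.12 and 15.20 on p53 mKO arrays and between 15.06 and 15.16 on immobile control arrays. Trp53, the gene of p53, had 0 probes, so the deletion was not checked at its own gene. Of 5 lymphocyte markers with a probe, 0 passed the filter on dim genes.

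Some arrays stood apart from their own group, and the numbers in the titles tied arrays of both groups together. Control immobile array 1 differed at least 2-fold from the mean of the other control immobile arrays in 123 genes, and control immobile array 3 in 108 genes, against 14 genes for control immobile array 2. Among p53 mKO arrays the number was 62 for array 3, 8 for array 1 and 4 for array 2. Across 10842 genes the deviations of same-numbered p53 mKO and control arrays from their group means had correlations of 0.62, 0.48 and 0.81 for numbers 1, 2 and 3, and each array correlated best with its own number. The differences are therefore given both unpaired, with the spread shared with the mobile control arrays, and paired by number. Control immobile array 1 was also the array with the most macrophage and proliferation signal, as described with those genes, and results that rest on it are given with and without it.

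No gene passed the adjusted threshold of 0.05 with limma, in either form. Of 10842 genes tested, 0 were called unpaired (0%) and 0 paired (0%), with a lowest adjusted p of 1 unpaired and 0.718 paired. At an unadjusted p under 0.05, 196 genes (1.81%) were higher and 123 (1.13%) lower in p53 mKO limbs in the unpaired fit. In the paired fit 468 genes (4.32%) were higher and 262 (2.42%) lower. In both directions together these are 319 genes (2.94%) unpaired and 730 (6.73%) paired. The same sign in every pair was common: 1492 genes (13.8%) were higher and 1329 (12.3%) lower in all 3 pairs. Without control immobile array 1 the unpaired fit had 165 higher (1.52%) and 161 lower (1.48%). Without control immobile array 3 it had 427 higher and 240 lower, and without control immobile array 2 it had 265 higher and 235 lower. Whatever their p, 5269 genes were higher and 5339 lower with all arrays, and 4856 and 5863 without control immobile array 1. The differences were small. S100a8 was the 1 gene with a difference of at least 2-fold (0.00922%), and 7 genes reached 1.5-fold (0.0646%). The median SD between arrays of a gene was 0.072 on the log2 scale in p53 mKO limbs, 0.095 in immobile control limbs and 0.053 in mobile control limbs. For the 3 pair differences it was 0.079. A difference carries the spread of 2 arrays, so that value is not comparable with the SDs of single levels. Since no gene passed after adjustment, differences are described as higher or lower, each with limma's 95% interval, called the interval below. These intervals are not adjusted for the number of genes, and they flatter genes that were picked for their rank. An exact permutation test of a single gene with 3 arrays against 3 cannot go below p = 0.1, two-sided.

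Among the canonical p53 targets, Cdkn1a was lower in p53 mKO limbs, and most others lay close to the control level. Cdkn1a, which encodes the cyclin-dependent kinase inhibitor p21, had log2 levels of 10.85, 11.25 and 11.16 in p53 mKO limbs, against 11.54, 11.37 and 11.99 in control limbs and 10.13, 9.96 and 10.25 in mobile control limbs. The groups did not overlap, and every p53 mKO array lay between the immobile and the mobile control arrays. The difference was -0.55 ± 0.17 (SE), with an interval from -0.94 to -0.15 unpaired and -0.97 to -0.13 paired, and it was -0.59 without control immobile array 1. By pair it was -0.69, -0.12 and -0.83, and the highest control level, 11.99, was that of control immobile array 3. All 3 Cdkn1a probes were lower, from -0.61 to -0.46.

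The upstream promoter of Cdkn1a is shown because it carries the motif of the deleted factor. In RefSeq (GRCm38.p6) Cdkn1a has 2 annotated starts with a promoter window of 250 bases before to 50 after the start. The window of the upstream start, chr17:29090729-29091028 on the plus strand, holds 2 matches to the p53 half-site, searched on both strands and set in capitals. The window of the downstream start, chr17:29093519-29093818, holds 0 matches. Of 32851 promoter windows of the same length, 8.36% hold at least 1 match, so a match is a description of the letters and not a site shown to be bound.
Cdkn1a upstream promoter: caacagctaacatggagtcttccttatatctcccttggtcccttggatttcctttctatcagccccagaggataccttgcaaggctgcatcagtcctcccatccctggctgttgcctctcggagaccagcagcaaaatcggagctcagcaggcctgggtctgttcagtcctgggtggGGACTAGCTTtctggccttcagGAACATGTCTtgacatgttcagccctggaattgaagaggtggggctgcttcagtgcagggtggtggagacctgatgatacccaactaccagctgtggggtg

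The list of p53 targets as a whole did not lie to one side. Of 47 entries, 43 had a probe and 36 passed the filter. Of those, 16 were higher and 20 lower in p53 mKO limbs, with a median of -0.005 against 0 over all genes tested. At an unadjusted p under 0.05, 2 were higher and 1 lower unpaired, and 3 were higher and 2 lower paired, where 1.81% and 1.13% of all genes were higher and lower unpaired and 4.32% and 2.42% paired. With control immobile array 1 left out, 13 were higher and 23 lower with a median of -0.023. At that p 1 was then higher and 2 lower, against 1.52% and 1.48% of all genes. The members on the higher side included Siva1, Triap1 and Ddb2. Siva1, a proapoptotic target, had 11.69, 11.64 and 11.66 in p53 mKO limbs, against 11.54, 11.55 and 11.41 in control limbs, with no overlap (0.16 ± 0.05 SE, interval 0.06 to 0.27 unpaired and 0.04 to 0.29 paired). Triap1, an inhibitor of apoptosis, was higher in every pair (0.20, interval -0.01 to 0.41 unpaired and 0.09 to 0.32 paired). Ddb2, a sensor of ultraviolet DNA damage, was higher by 0.12 (interval 0.01 to 0.23 unpaired and -0.0012 to 0.25 paired), but 2 of its 4 probes were lower, and the difference was 0.085 without control immobile array 1.

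Cd82 and Apaf1 lay lower in every pair, as did 12.3% of all genes. Cd82, a membrane tetraspanin, had 10.90, 10.74 and 10.73 in p53 mKO limbs, against 11.16, 10.83 and 11.09 in control limbs (-0.24, interval -0.52 to 0.05 unpaired and -0.41 to -0.06 paired). Apaf1, the core of the apoptosome, was lower by 0.27 (interval -0.57 to 0.03 unpaired and -0.55 to 0.0027 paired), but by 0.11 without control immobile array 1. Mdm2, the ubiquitin ligase that degrades p53, had 11.60, 11.57 and 11.88 in p53 mKO limbs, against 11.41, 11.67 and 12.21 in control limbs. Its groups overlapped, with a difference of -0.08 and a 95% interval from -0.50 to 0.34 unpaired and -0.38 to 0.22 paired, and it was -0.26 without control immobile array 1. Ccng1, a cyclin G gene and p53 target, differed by 0.03 (interval -0.23 to 0.30 unpaired and -0.12 to 0.19 paired). Bbc3, which encodes the proapoptotic PUMA, differed by -0.04 (interval -0.22 to 0.14 unpaired and -0.21 to 0.13 paired), and by -0.13 without control immobile array 1. Plk2, a polo-like kinase, differed by -0.09 (interval -0.24 to 0.06 unpaired and -0.26 to 0.08 paired). With all arrays the test did not separate the groups for Apaf1, Mdm2, Ccng1, Bbc3 and Plk2 in either fit. For Cd82 the paired interval excluded 0 and the unpaired one did not. The intervals bound the size of a difference that these arrays could have hidden.

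Gadd45a, a stress gene that p53 and other factors induce, showed how far the pairs differ. Its levels were 12.98, 13.36 and 13.56 in p53 mKO limbs, against 12.99, 13.49 and 14.07 in control limbs. The difference was -0.01 in pair 1, -0.13 in pair 2 and -0.51 in pair 3. The mean of -0.22 had an interval from -0.83 to 0.39 unpaired and from -0.51 to 0.08 paired, and it was -0.48 without control immobile array 1. Of the 2 Gadd45a probes, 1 was lower and 1 was higher by 0.0067.

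**Figure D1:**
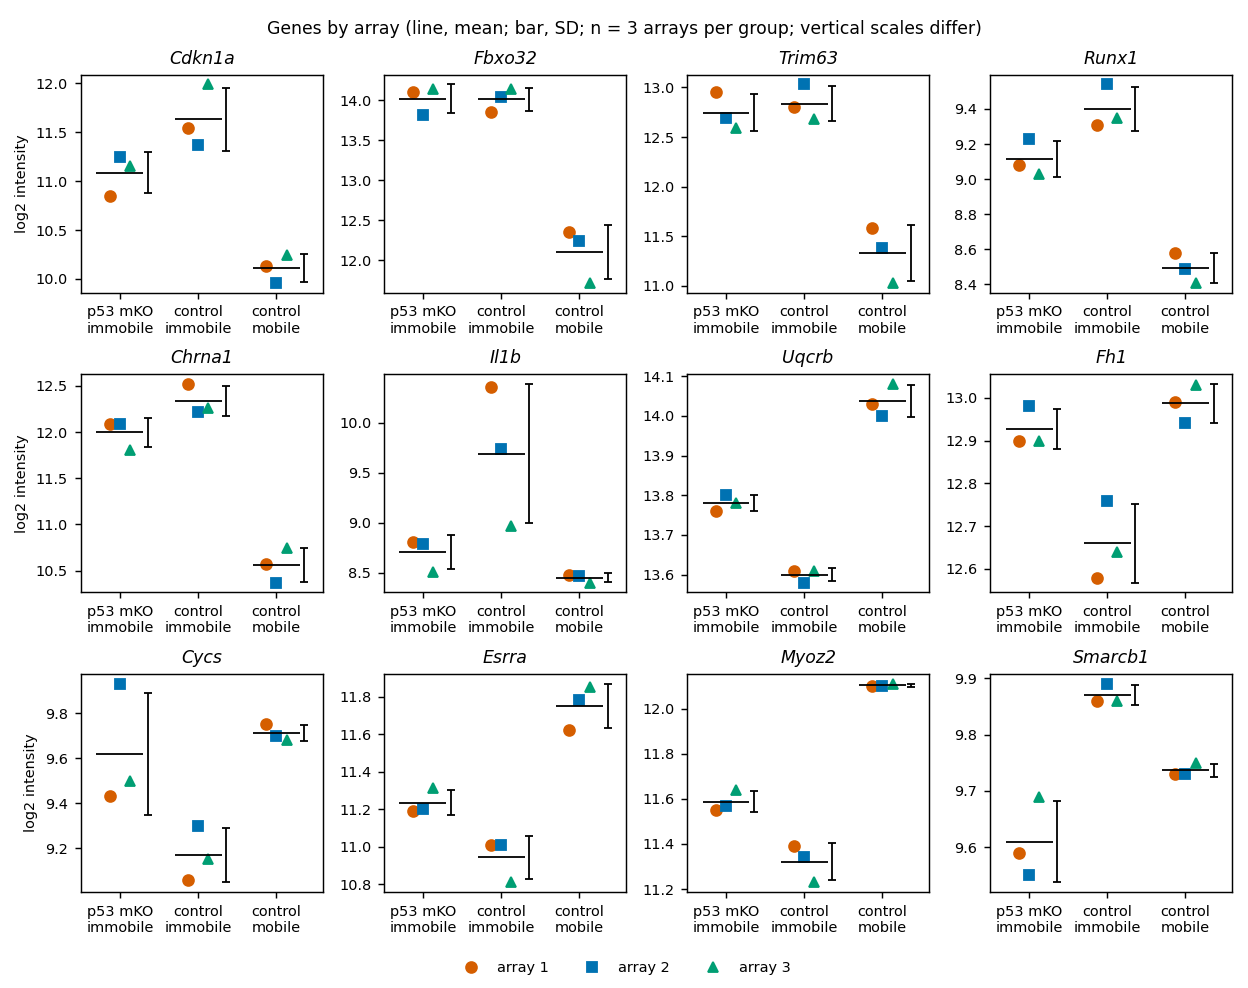
Log2 intensity of 12 genes on each array of immobile p53 mKO, immobile control and mobile control limbs, with points for arrays, lines for means and bars for SD (n = 3 arrays per group); the vertical scale differs between panels and does not start at 0. Cdkn1a, Runx1 and Chrna1 lie lower and Uqcrb, Fh1 and Esrra higher on all 3 p53 mKO arrays than on the control immobile arrays, while Fbxo32 and Trim63 overlap.

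The ubiquitin ligases Fbxo32 and Trim63 overlapped between the immobile groups. They encode atrogin-1 and MuRF1, which tag muscle proteins for breakdown and are the standard marks of atrophy. Fbxo32 had 14.10, 13.81 and 14.14 in p53 mKO limbs, against 13.85, 14.04 and 14.14 in control limbs and 12.36, 12.24 and 11.72 in mobile control limbs. Its difference was 0.01, with an interval from -0.39 to 0.40 unpaired and -0.27 to 0.28 paired. Trim63 had 12.95, 12.69 and 12.59 in p53 mKO limbs, against 12.80, 13.03 and 12.68 in control limbs and 11.58, 11.38 and 11.03 in mobile control limbs. Its difference was -0.09, with an interval from -0.46 to 0.27 unpaired and -0.37 to 0.19 paired, and both genes were at least 1 log2 unit above the mobile level on every immobile array. Foxo1, a transcription factor that drives both ligases, was lower by 0.14 (interval -0.56 to 0.28 unpaired and -0.31 to 0.03 paired), and by 0.32 without control immobile array 1.

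Of 18 tested genes on the list of atrophy ligases and FoxO factors, 10 were higher and 8 lower, with a median of 0.007. At an unadjusted p under 0.05, 1 was higher and 0 lower in both fits. Over all genes 1.81% were higher and 1.13% lower unpaired, and 4.32% and 2.42% paired. The split of the list turned to 5 higher and 13 lower without control immobile array 1, with a median of -0.085. At that p 0 were then called in either direction, where 1.52% of all genes were higher and 1.48% lower. In pair 1, 16 were higher and 1 lower, in pair 2, 6 were higher and 10 lower, and in pair 3, 6 were higher and 9 lower. Usp14, a deubiquitinase bound to the proteasome, was higher without overlap (0.16, interval 0.0030 to 0.32 unpaired and 0.01 to 0.31 paired), and by 0.13 without control immobile array 1. Map1lc3b, which encodes the LC3B protein of autophagosome membranes, had 11.81, 11.90 and 11.80 in p53 mKO limbs, against 11.21, 11.39 and 11.60 in control limbs. All 3 p53 mKO arrays lay above all control arrays, by 0.44 ± 0.10 (SE; interval 0.21 to 0.66 unpaired and 0.19 to 0.68 paired), and by 0.34 without control immobile array 1. Of all 20 autophagy genes tested, Map1lc3b included, 14 were higher and 6 lower with a median of 0.038, and 11 were higher and 9 lower with a median of 0.0075 without control immobile array 1.

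Proteasome subunits split by pair. Of 29 tested, 26 were higher in pair 1, but 6 were higher and 22 lower in pair 2, and 13 higher and 14 lower in pair 3. The list median was 0.020 with all arrays and -0.047 without control immobile array 1. Psma3, an alpha ring subunit, was higher without overlap at 14.22, 14.29 and 14.29 in p53 mKO limbs, against 13.97, 14.13 and 14.09 in control limbs (0.20, interval 0.05 to 0.35 unpaired and 0.10 to 0.30 paired). Psmc6, an ATPase of the proteasome cap, was higher in all 3 pairs (0.27, interval -0.03 to 0.57 unpaired and 0.17 to 0.37 paired), and Psmc3, another ATPase of the cap, was lower without overlap (-0.14, interval -0.26 to -0.01 unpaired and -0.32 to 0.04 paired).

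Genes that muscle switches on when it loses nerve input lay mostly lower in p53 mKO limbs. Of 23 tested on the list of denervation and synapse genes, 17 were lower and 6 higher, and the median was -0.053, and -0.122 without control immobile array 1. At an unadjusted p under 0.05, 5 were lower and 0 higher unpaired, and 4 were lower and 0 higher paired, where 1.13% of all genes were lower unpaired and 2.42% paired. At that p 3 were lower and 0 higher without control immobile array 1, where 1.48% of all genes were lower and 1.52% higher. The list was lower in each pair by count, with 15 of 23 lower in pair 1, 14 in pair 2 and 21 in pair 3. Its median lay close to 0 in pairs 1 and 2, at -0.02 in each, and was -0.10 in pair 3. These genes were above the mobile level in both groups: their mean stood 0.31, 0.40 and 0.40 log2 units above the mobile mean on p53 mKO arrays, against 0.47, 0.44 and 0.59 on control immobile arrays.

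Runx1, a transcription factor induced in denervated muscle, had 9.08, 9.23 and 9.03 in p53 mKO limbs, against 9.31, 9.54 and 9.35 in control limbs and 8.58, 8.49 and 8.41 in mobile control limbs. Its groups did not overlap, and the difference of -0.29 ± 0.08 (SE) had an interval of -0.47 to -0.10 unpaired and -0.39 to -0.18 paired. Ncam1, a neural cell adhesion molecule, was likewise lower without overlap, at 9.27, 9.27 and 9.13 in p53 mKO limbs, against 9.43, 9.37 and 9.57 in control limbs (-0.23, interval -0.39 to -0.07 unpaired and -0.45 to -0.02 paired). Sln encodes sarcolipin, a regulator of the calcium pump. It had 9.99, 10.13 and 9.96 in p53 mKO limbs, against 10.10, 10.61 and 10.56 in control limbs (-0.40, interval -0.70 to -0.09 unpaired and -0.69 to -0.10 paired), and p53 mKO array 2 overlapped control array 1.

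Chrna1, the alpha subunit of the muscle acetylcholine receptor, had 12.09, 12.09 and 11.81 in p53 mKO limbs, against 12.52, 12.22 and 12.26 in control limbs and 10.57, 10.37 and 10.74 in mobile control limbs. The difference of -0.34 ± 0.12 (SE; interval -0.62 to -0.05 unpaired and -0.55 to -0.12 paired) was carried by the brightest of its 3 probes, of which 2 were lower and 1 was not. It was -0.24 without control immobile array 1. Myog encodes myogenin, the myogenic factor that activates receptor genes in muscle without nerve input. Its levels were 9.06, 9.55 and 9.09 in p53 mKO limbs, against 10.21, 9.27 and 9.79 in control limbs, so that pair 2 went the other way (-0.52, interval -1.04 to -0.0026 unpaired and -1.33 to 0.28 paired), and the difference was -0.30 without control immobile array 1. Of the 2 Myog probes, 1 was lower and 1 was higher by 0.023. Chrng, the fetal gamma subunit of the receptor, differed by -0.53 (interval -1.36 to 0.29 unpaired and -1.32 to 0.25 paired), but by -0.05 without control immobile array 1, which read 10.42 against 9.05 and 8.89 on the other control arrays. Hdac4, a deacetylase that links nerve activity to these genes, differed by 0.01 (interval -0.77 to 0.78 unpaired and -0.15 to 0.16 paired), and by -0.26 without control immobile array 1.

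The promoter of Chrna1 is shown for its E-boxes, the motif that myogenin and its relatives bind. Its RefSeq window (GRCm38.p6), chr2:73580289-73580588 on the minus strand, is written in the direction of transcription and holds 2 matches to CAGCTG, which reads the same on both strands and is set in capitals. At least 1 match stands in 16.3% of the 32851 promoter windows.
Chrna1 promoter: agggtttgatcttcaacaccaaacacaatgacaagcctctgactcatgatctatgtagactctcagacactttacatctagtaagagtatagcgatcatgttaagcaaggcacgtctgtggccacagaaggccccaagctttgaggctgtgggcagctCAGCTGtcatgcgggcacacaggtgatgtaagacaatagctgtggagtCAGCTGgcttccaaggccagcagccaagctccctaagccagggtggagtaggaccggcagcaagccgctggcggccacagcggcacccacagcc

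Genes of the regenerating fibre lay lower too, mainly in pair 1. Of 15 tested, 12 were lower and 3 higher, with a median of -0.117. The median was -0.42 in pair 1, -0.02 in pair 2 and -0.04 in pair 3, and -0.097 over the list without control immobile array 1. Myh8, the perinatal myosin heavy chain, had 9.39, 9.35 and 9.12 in p53 mKO limbs, against 10.14, 9.86 and 9.23 in control limbs (-0.46, interval -0.82 to -0.09 paired). The unpaired interval included 0, with an upper end of 0.09, and the difference was -0.26 without control immobile array 1.

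Genes of the mitochondrial respiratory chain lay on the higher side in p53 mKO limbs. Of 73 tested, 52 were higher and 20 lower, with a median of 0.047, against 5269 higher and 5339 lower of all 10842 genes. At an unadjusted p under 0.05, 8 were higher and 0 lower unpaired, and 14 were higher and 0 lower paired, where 1.81% of all genes were higher unpaired and 4.32% paired. Without overlap between the groups 10 were higher and 0 lower, and over all genes 319 were higher (2.94%) and 288 lower (2.66%). The count leaned on control immobile array 1. Without it, 42 were higher and 31 lower with a median of 0.025, where 4856 of all genes were higher and 5863 lower. At an unadjusted p under 0.05, 5 respiratory genes were then higher and 2 lower, against 1.52% and 1.48% of all genes.

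Both groups lay below the mobile level. The mean of the respiratory genes stood 0.22, 0.21 and 0.17 log2 units below the mobile mean on p53 mKO arrays, against 0.33, 0.25 and 0.23 on control immobile arrays. By this mean the p53 mKO array of each pair was the nearer to the mobile limbs. By count of genes the pairs differed, with 62 higher and 10 lower in pair 1, 35 higher and 33 lower in pair 2, where the median was 0, and 48 higher and 24 lower in pair 3. By complex, the median difference was 0.030 over 33 genes of complex I, 0.103 over 3 genes of complex II, 0.043 over 9 genes of complex III and cytochrome c, 0.040 over 13 genes of complex IV and 0.063 over 15 genes of ATP synthase. Without control immobile array 1 the median of complex I was -0.003, while that of ATP synthase was 0.085.

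**Figure D2:**
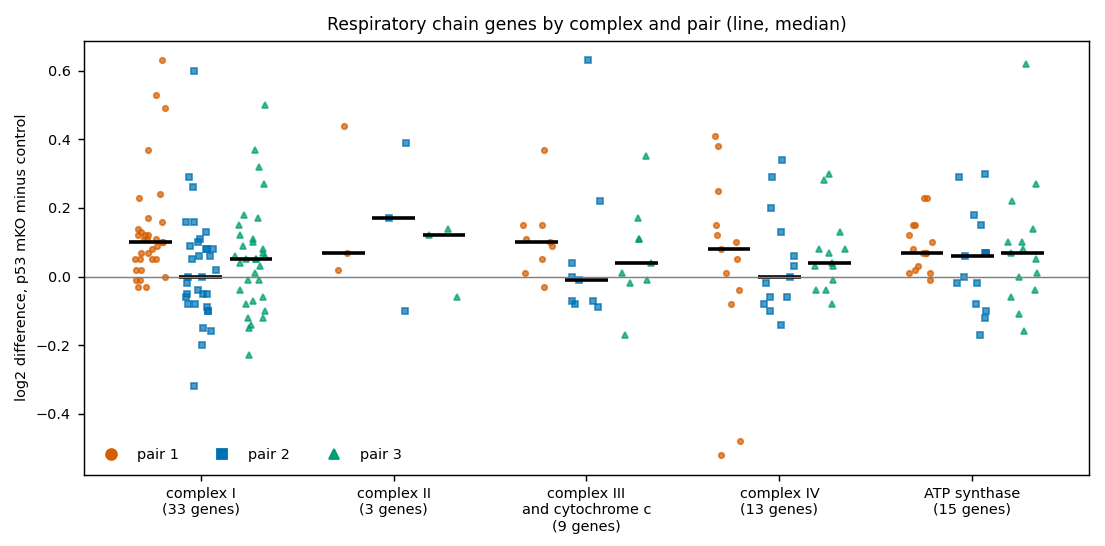
Log2 difference of each respiratory chain gene, p53 mKO minus control, by complex and by pair of same-numbered immobile arrays, with 1 point per gene and a line at the median. Pair 1 lies highest in complex I, with a median of 0.10 against 0 in pair 2 and 0.05 in pair 3, and the 3 medians of ATP synthase lie between 0.06 and 0.07.

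The members with the clearest separation come from several complexes. Uqcrb, a subunit of complex III, had 13.76, 13.80 and 13.78 in p53 mKO limbs, against 13.61, 13.58 and 13.61 in control limbs and 14.03, 14.00 and 14.08 in mobile control limbs. Each group kept within a narrow band, and the p53 mKO band lay between the others (0.18 ± 0.03 SE, interval 0.10 to 0.26 unpaired and 0.08 to 0.28 paired). Cycs, which encodes cytochrome c, had 9.43, 9.93 and 9.50 in p53 mKO limbs, against 9.06, 9.30 and 9.15 in control limbs (0.45, interval 0.16 to 0.74 unpaired and 0.26 to 0.64 paired). Atp5c1, the gamma subunit of ATP synthase, had 13.42, 13.55 and 13.43 in p53 mKO limbs, against 13.19, 13.26 and 12.81 in control limbs (0.38, interval 0.13 to 0.63 unpaired and 0.13 to 0.63 paired). Neither gene overlapped between the groups, and both probes of Cycs were higher.

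Cox6c, a subunit of cytochrome c oxidase, shows what pairing does. Its levels were 14.04, 14.32 and 14.18 in p53 mKO limbs, against 13.66, 14.03 and 13.88 in control limbs, so that arrays of a number moved together and the difference of 0.32 had an interval of 0.08 to 0.57 unpaired and 0.22 to 0.43 paired. Ndufb4, of complex I, had 10.51, 10.96 and 11.40 in p53 mKO limbs, against 9.98, 10.36 and 11.03 in control limbs. Its groups overlapped, while the pair differences were 0.53, 0.60 and 0.37 (interval -0.17 to 1.17 unpaired and 0.34 to 0.66 paired). Their mean of 0.50 was 0.26 without control immobile array 1. Ndufb10, also of complex I, was higher without overlap (0.37, interval 0.10 to 0.63 unpaired and 0.11 to 0.62 paired).

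Enzymes of the citric acid cycle, which feeds the chain, lay on the higher side with all arrays. Of 22 tested, 16 were higher and 6 lower with a median of 0.040, and 4 were higher and 0 lower at an unadjusted p under 0.05 in both fits, where 1.81% of all genes were higher unpaired and 4.32% paired. Leaving out control immobile array 1 gave 14 higher and 8 lower with a median of 0.015. At that p 2 were then higher and 0 lower, against 1.52% and 1.48% of all genes. The median was 0.085 in pair 1, 0.090 in pair 2 and 0.005 in pair 3, where 11 were higher and 11 lower. Fh1, fumarate hydratase, had 12.90, 12.98 and 12.90 in p53 mKO limbs, against 12.58, 12.76 and 12.64 in control limbs and 12.99, 12.94 and 13.03 in mobile control limbs. The p53 mKO arrays lay within 0.1 of the mobile mean (0.27 ± 0.05 SE against control, interval 0.14 to 0.39 unpaired and 0.16 to 0.37 paired). Dld, the E3 subunit shared by the 2-oxoacid dehydrogenases, had 10.75, 11.06 and 10.66 in p53 mKO limbs, against 10.14, 10.41 and 10.41 in control limbs (0.50, interval 0.15 to 0.86 unpaired and 0.25 to 0.76 paired). Sucla2, a subunit of succinyl-CoA ligase, was higher by 0.21 without overlap (interval 0.03 to 0.38 unpaired and 0.11 to 0.31 paired).

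Among 13 tested regulators of oxidative genes, Esrra was the 1 member with an unadjusted p under 0.05 unpaired. At that p 2 were higher paired and 2 without control immobile array 1, and 0 were lower in any of these fits. Over all genes 1.81% were higher unpaired, 4.32% paired and 1.52% without that array. Esrra encodes the orphan receptor ERR alpha, which works with PGC-1 proteins on mitochondrial genes. It had 11.19, 11.20 and 11.31 in p53 mKO limbs, against 11.01, 11.01 and 10.81 in control limbs and 11.62, 11.78 and 11.85 in mobile control limbs (0.29 ± 0.08 SE, interval 0.11 to 0.47 unpaired and 0.07 to 0.51 paired). Perm1, a muscle regulator that acts with PGC-1 and ERR, had 11.40, 11.18 and 11.25 in p53 mKO limbs, against 11.21, 10.86 and 10.92 in control limbs and 13.08, 13.39 and 13.49 in mobile control limbs. It was higher by 0.28 with a small overlap (interval -0.02 to 0.58 unpaired and 0.16 to 0.40 paired), and both immobile groups lay far below the mobile arrays. Over the 13 tested regulators, 9 were higher and 4 lower with a median of 0.060, but 6 were higher and 7 lower without control immobile array 1. Mtres1, a mitochondrial RNA-binding protein, was higher without overlap (0.23, interval 0.14 to 0.32 unpaired and 0.13 to 0.33 paired), and so was Mrps35 of the mitochondrial ribosome (0.17, interval 0.07 to 0.27 unpaired and 0.07 to 0.28 paired). The 41 mitochondrial ribosome genes had a median of 0.007, and of -0.0033 without control immobile array 1.

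Most fast fibre and glycolytic genes were slightly higher, while slow fibre genes were split. Of 19 fast fibre genes, 15 were higher and 4 lower with a median of 0.033, which was -0.0037 after quantile normalization. Mylpf, the fast regulatory light chain, was higher by 0.12 (interval -0.02 to 0.26 unpaired and 0.0040 to 0.24 paired). Of 17 slow fibre genes, 9 were higher and 8 lower with a median of 0.0067. Myoz2, a calcineurin-binding protein of the slow fibre Z-disc, had 11.55, 11.57 and 11.64 in p53 mKO limbs, against 11.39, 11.34 and 11.23 in control limbs and 12.10, 12.10 and 12.11 in mobile control limbs (0.27 ± 0.05 SE, interval 0.16 to 0.38 unpaired and 0.10 to 0.43 paired). As for Uqcrb and Esrra, the p53 mKO arrays lay between immobile and mobile controls. This did not hold for all the higher genes described above. The p53 mKO mean lay above the mobile mean for Atp5c1 (13.47 against 13.33), Cox6c (14.18 against 13.94) and Dld (10.82 against 10.67). For Cycs it lay below (9.62 against 9.71). Myl2, the slow regulatory light chain, was higher without overlap by 0.73, with p53 mKO array 3 at 12.50 against 11.14 and 11.46 on the other p53 mKO arrays (interval -0.06 to 1.52 unpaired and 0.06 to 1.41 paired).

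Of 21 tested genes of glycolysis and glycogen, 17 were higher and 4 lower with a median of 0.047, and of 0.057 without control immobile array 1. At an unadjusted p under 0.05, 2 were higher unpaired and 3 paired, and 0 were lower in either fit, where 1.81% of all genes were higher unpaired and 4.32% paired. Pfkm, muscle phosphofructokinase, was higher without overlap (0.13, interval 0.02 to 0.24 unpaired and 0.0018 to 0.26 paired), with 1 of its 3 probes lower. Ldha, lactate dehydrogenase A, was higher in each pair by a mean of 0.16 (interval -0.06 to 0.38 unpaired and 0.03 to 0.29 paired).

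**Figure D3:**
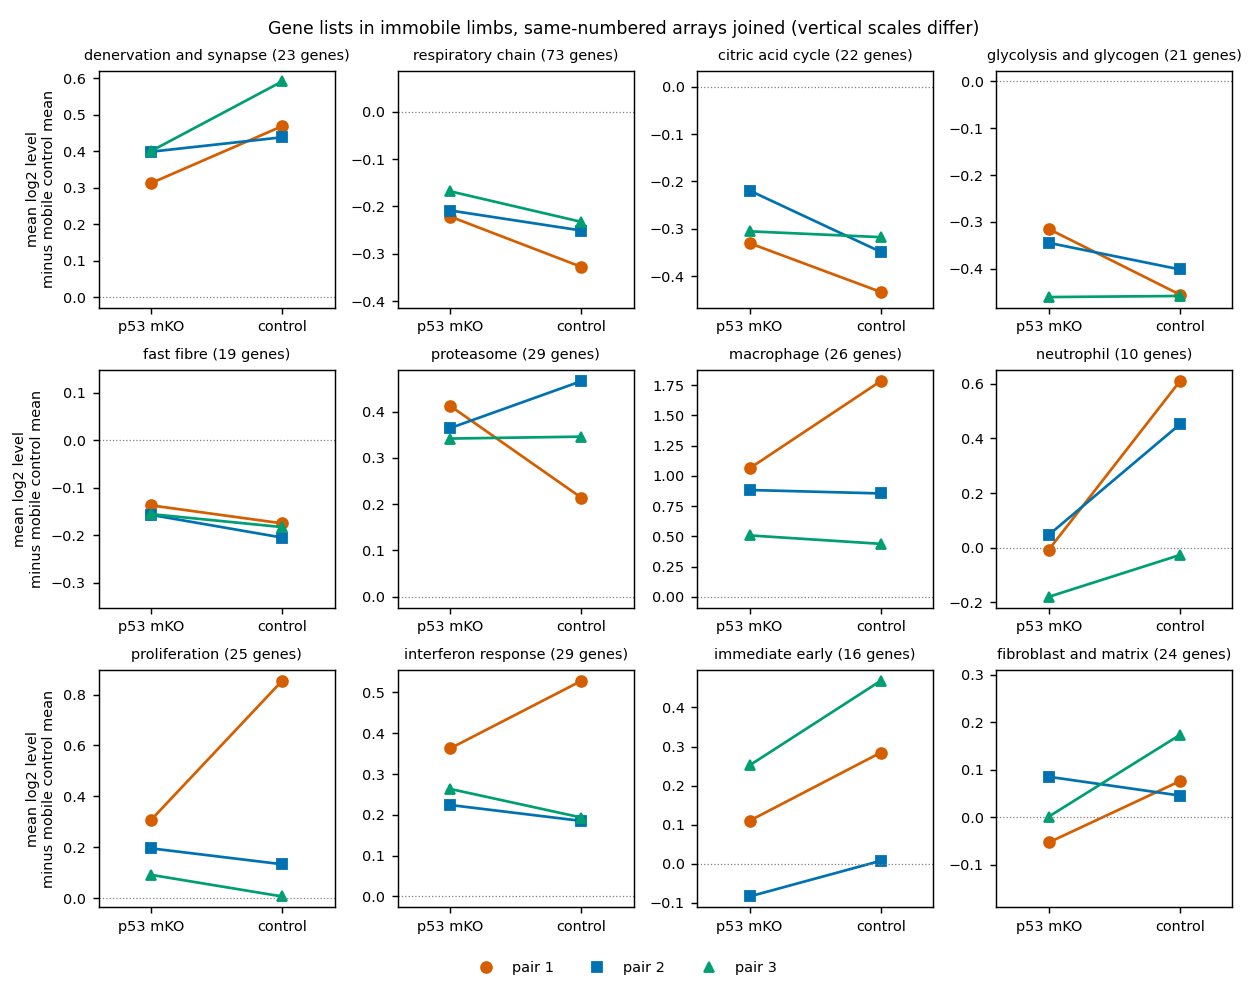
Mean log2 level of 12 gene lists on each immobile array, relative to the mean of the 3 mobile control arrays, with p53 mKO at the left, control at the right and same-numbered arrays joined; vertical scales differ. Denervation and synapse genes lie lower and respiratory chain genes higher on the p53 mKO array in all 3 pairs, while macrophage, proliferation and interferon genes lie lower in pair 1 and slightly higher in pairs 2 and 3.

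Among genes of macrophages, dividing cells and the interferon response, the direction depended on whether control immobile array 1 was included. Of 26 tested macrophage genes, 22 were lower in p53 mKO limbs with a median of -0.228. Their mean stood 1.06, 0.88 and 0.51 log2 units above the mobile mean on p53 mKO arrays, against 1.78, 0.85 and 0.44 on control immobile arrays. Without control immobile array 1, 4 of the 26 were lower, and the median was 0.126. Fcgr3, an immunoglobulin receptor of myeloid cells, had 9.80, 9.72 and 9.40 in p53 mKO limbs, against 10.89, 9.71 and 9.52 in control limbs, a difference of -0.40 with all arrays (interval -1.14 to 0.34 unpaired and -1.06 to 0.26 paired) and 0.025 without control immobile array 1. Mrc1, a macrophage mannose receptor, differed by -0.25 (interval -0.73 to 0.22 unpaired and -0.72 to 0.21 paired) and by -0.04 without that array. In whole muscle, fewer cells of a type and less RNA per cell cannot be told apart.

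Proliferation genes followed the same array. Of 25 tested, 24 were lower with a median of -0.127, and without control immobile array 1 only 1 was lower and 23 higher with a median of 0.115. At an unadjusted p under 0.05, 0 were called with all arrays. Without that array 4 were higher and 0 lower, against 1.52% and 1.48% of all genes. Mcm4, a subunit of the replicative helicase, had 10.31, 10.23 and 10.13 in p53 mKO limbs, against 11.10, 10.17 and 10.05 in control limbs (-0.22, interval -0.77 to 0.34 unpaired and -0.77 to 0.33 paired), and the difference was 0.11 without control immobile array 1. Of 29 interferon response genes, 14 were higher and 15 lower with all arrays, with a median of -0.027. Without control immobile array 1, 25 were higher and 4 lower with a median of 0.11. In pair 2, 21 were higher and 7 lower, and in pair 3, 22 and 7. At an unadjusted p under 0.05, 0 were higher and 1 lower with all arrays, and 7 and 2 without that array. Over all genes the shares were 1.81% and 1.13% with all arrays, and 1.52% and 1.48% without it. Whether the number of infiltrating cells plays a part in other differences was not tested.

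The inflammatory ligands Il1b and Cxcl1 were lower in p53 mKO limbs in all 3 pairs. Il1b, the cytokine interleukin-1 beta, had 8.81, 8.79 and 8.51 in p53 mKO limbs, against 10.36, 9.74 and 8.97 in control limbs and 8.48, 8.47 and 8.40 in mobile control limbs. The immobile groups did not overlap, and the pair differences ran from -1.55 to -0.46 (mean -0.99 ± 0.30 SE, interval -1.67 to -0.30 unpaired and -1.59 to -0.38 paired). Cxcl1, a chemokine that attracts neutrophils, had 9.15, 9.06 and 9.18 in p53 mKO limbs, against 10.39, 9.72 and 9.51 in control limbs (-0.74, interval -1.23 to -0.25 unpaired and -1.25 to -0.23 paired). Without control immobile array 1 the differences were -0.65 for Il1b and -0.48 for Cxcl1. Ifngr1, a chain of the interferon gamma receptor, was lower without overlap (-0.23, interval -0.37 to -0.09 unpaired and -0.36 to -0.10 paired). Cxcl10, a chemokine induced by interferon, was equal in pair 1 and lower in pairs 2 and 3 (-0.27 with all arrays, interval -0.58 to 0.05 unpaired and -0.53 to 0.00059 paired, and -0.45 without control immobile array 1).

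S100a8, a calcium-binding protein of neutrophils, had the largest difference of the 10842 genes. It read 9.96, 10.06 and 9.51 in p53 mKO limbs, against 11.66, 11.60 and 10.37 in control limbs, a difference of -1.37 with an interval of -2.85 to 0.12 unpaired and -1.86 to -0.87 paired. The mobile control arrays spread more widely, at 10.05, 11.85 and 9.19, and so covered both immobile groups. Its partner S100a9 had 8.98, 9.15 and 8.86 in p53 mKO limbs, against 10.18, 10.26 and 8.97 in control limbs (-0.81, interval -2.01 to 0.40 unpaired and -1.47 to -0.14 paired). Of 10 tested neutrophil genes, 8 were lower and 2 higher with a median of -0.198, and 7 were lower with a median of -0.057 without control immobile array 1. Over the 4 defining neutrophil markers with a probe, the mean level was 8.79 to 9.05 on p53 mKO arrays, 9.04 to 9.76 on control immobile arrays and 8.66 to 9.98 on mobile control arrays, and their part in the chemokine differences was not tested.

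The immediate early genes Fos, Jun and Egr1 were lower in every pair of p53 mKO and control arrays, as were 12.3% of all genes. Fos, a subunit of the AP-1 factor, had 10.86, 9.81 and 10.38 in p53 mKO limbs, against 11.27, 10.35 and 11.62 in control limbs, with overlap but lower in each pair (-0.73, interval -1.81 to 0.35 unpaired and -1.23 to -0.23 paired). Jun, its partner, was lower by 0.27 (interval -0.64 to 0.10 unpaired and -0.41 to -0.13 paired) and by 0.41 without control immobile array 1, and Egr1, a zinc finger factor, by 0.47 (interval -1.16 to 0.23 unpaired and -0.79 to -0.15 paired). Of 16 tested immediate early genes 12 were lower, with medians of -0.14, -0.065 and -0.10 in pairs 1, 2 and 3. The mobile control arrays also spread for Fos, at 10.65, 10.11 and 11.61.

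Tef, a clock output factor, had 11.72, 11.95 and 12.16 in p53 mKO limbs, against 11.45, 11.53 and 11.83 in control limbs (0.34, interval 0.05 to 0.63 unpaired and 0.22 to 0.46 paired). Its 2 probes differed in sign, and the difference was 0.26 without control immobile array 1. Nr1d2, which encodes the clock repressor REV-ERB beta, was higher in every pair (0.31, interval -0.07 to 0.69 unpaired and 0.17 to 0.45 paired), by 0.17 without control immobile array 1. Over the 13 clock genes 9 were higher with all arrays and 5 without control immobile array 1. The list median was 0.12 in pair 1, 0.06 in pair 2 and -0.03 in pair 3, where 6 were higher and 7 lower. The time of day of harvest is not given in the labels.

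Matrix genes were mixed. Of 24 tested fibroblast and matrix genes, 19 were lower and 5 higher, with a median of -0.085. In pair 2, 13 were higher and 11 lower. At an unadjusted p under 0.05, 0 were higher and 1 lower unpaired, and 1 was higher and 4 lower paired. Over all genes 1.81% were higher and 1.13% lower unpaired, and 4.32% and 2.42% paired. Without control immobile array 1, 8 were higher and 16 lower with a median of -0.086. At that p 0 were then called in either direction, against 1.52% and 1.48% of all genes. Serpinh1, a chaperone of collagen, was lower without overlap at 9.34, 9.40 and 9.30 in p53 mKO limbs, against 9.67, 9.59 and 9.56 in control limbs (-0.26, interval -0.49 to -0.03 unpaired and -0.38 to -0.14 paired). Timp1, an inhibitor of matrix proteases, was lower by 0.52 (interval -1.14 to 0.10 unpaired and -1.06 to 0.02 paired), and by 0.19 without control immobile array 1. Col3a1, a fibrillar collagen, was higher in every pair (0.34, interval -0.11 to 0.79 unpaired and 0.05 to 0.63 paired), by 0.21 without control immobile array 1. Adipoq, the fat cell hormone adiponectin, was higher without overlap (0.36, interval 0.05 to 0.66 unpaired and 0.14 to 0.57 paired).

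The genes that led the unpaired ranking came from no single list. On the lower side, Smarcb1, a core subunit of the SWI/SNF chromatin remodeller, had 9.59, 9.55 and 9.69 in p53 mKO limbs, against 9.86, 9.89 and 9.86 in control limbs and 9.73, 9.73 and 9.75 in mobile control limbs. The mobile arrays lay between the immobile groups (-0.26 ± 0.04 SE, interval -0.36 to -0.16 unpaired and -0.39 to -0.13 paired). Dusp11, an RNA phosphatase, was lower by 0.19 (interval -0.27 to -0.12 unpaired and -0.29 to -0.09 paired), and Nedd8, a ubiquitin-like modifier, by 0.16 (interval -0.25 to -0.07 unpaired and -0.26 to -0.07 paired). Suz12, a subunit of the Polycomb repressive complex, had 11.17, 11.20 and 11.09 in p53 mKO limbs, against 11.43, 11.43 and 11.27 in control limbs (-0.22, interval -0.36 to -0.09 unpaired and -0.32 to -0.12 paired). The 21 genes of the chromatin and Polycomb list had a median of 0.013.

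On the higher side, S100a13, a calcium-binding protein, differed by 0.23 (interval 0.13 to 0.32 unpaired and 0.11 to 0.34 paired), and Dazap2 by 0.24 (interval 0.13 to 0.36 in both fits). Rab10 and Rab7, small GTPases of vesicle traffic, differed by 0.34 (interval 0.18 to 0.50 unpaired and 0.19 to 0.48 paired) and by 0.21 (interval 0.10 to 0.31 unpaired and 0.08 to 0.33 paired). Nampt, an enzyme of NAD synthesis, had levels from 10.32 to 10.44 in p53 mKO limbs, against at most 10.11 in control limbs (0.34, interval 0.14 to 0.55 unpaired and 0.22 to 0.47 paired). None of these 5 genes overlapped between the immobile groups, though 1 of the 3 Rab7 probes was lower.

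Pairing brought forward genes whose level varied with the array number. Rtn4, which encodes the reticulon Nogo, had 11.74, 11.96 and 10.78 in p53 mKO limbs, against 11.45, 11.64 and 10.43 in control limbs. Both arrays numbered 3 were the lowest of their group, and the pair differences were 0.29, 0.32 and 0.35 (interval -0.54 to 1.18 unpaired and 0.23 to 0.41 paired). Carnmt1, a carnosine methyltransferase, likewise differed by 0.41, 0.33 and 0.32 by pair (interval -0.21 to 0.92 unpaired and 0.25 to 0.46 paired). Ptx3, a soluble pattern recognition protein, was lower by 0.52 (interval -1.02 to -0.03 unpaired and -0.73 to -0.31 paired) and Banf1, a DNA-binding protein of the nuclear envelope, by 0.22 (interval -0.42 to -0.01 unpaired and -0.30 to -0.13 paired). Of the 4 Banf1 probes, 2 were lower and 2 higher, from -0.22 to 0.06.

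**Figure D4:**
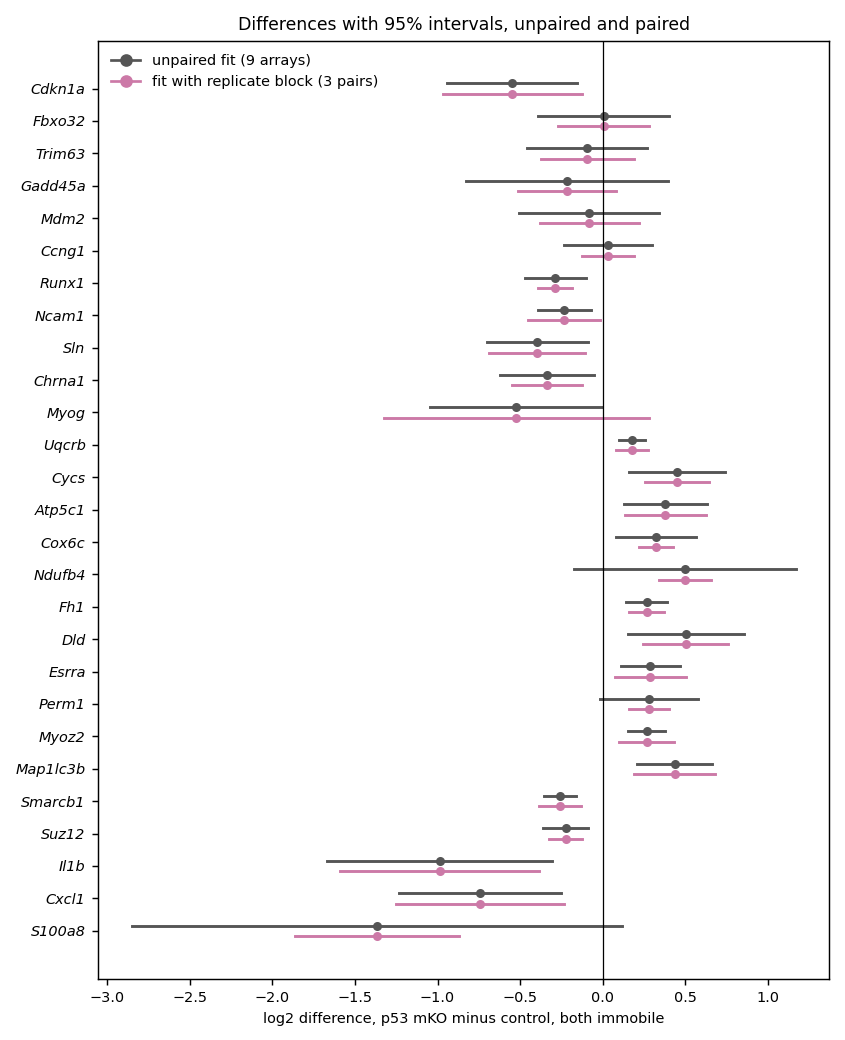
Log2 differences of 27 genes, p53 mKO minus control in immobile limbs, with 95% intervals from the unpaired fit of 9 arrays (grey) and from the fit paired by number (pink). The paired interval is the narrower for Ndufb4 (0.34 to 0.66 paired, -0.17 to 1.17 unpaired) and S100a8 and the wider for Myog (-1.33 to 0.28 paired, -1.04 to -0.0026 unpaired).

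The p53 plasmid gives a separate set of arrays in which p53 was added to muscle. There 3144 of 10398 genes rose (30.2%) and 2969 fell (28.6%) at an adjusted p under 0.05, and 829 rose (7.97%) and 782 fell (7.52%) by at least 1.5-fold. Cdkn1a rose with the plasmid, to 12.40, 12.66, 12.45 and 12.34, against 11.13, 11.66, 11.09 and 11.89 with control plasmid (1.02 ± 0.18 SE, limma's adjusted p = 0.00143). Bbc3 rose by 0.25 (adjusted p = 0.00101) and Plk2 by 0.74 (adjusted p = 0.000174), while Mdm2 differed by 0.16 (adjusted p = 0.0671). Other canonical targets fell with the plasmid, Ccng1 by 0.75 (adjusted p = 0.000218) and Gadd45a by 1.20 (adjusted p = 0.029).

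Of the genes described above, some lay on opposite sides in the 2 experiments and some on the same side. Fh1 fell with the plasmid, to 11.86, 11.54, 11.95 and 11.71, against 12.65, 12.47, 12.60 and 12.47 with control plasmid (-0.78, adjusted p = 0.000131). Esrra fell by 0.56 (adjusted p = 0.0014), Cycs by 0.50 (adjusted p = 0.00153) and Uqcrb by 0.29 (adjusted p = 0.00687), and all 3 were higher in p53 mKO limbs. Runx1 rose by 0.46 (adjusted p = 0.00735) and Chrna1 by 0.72 (adjusted p = 0.0404), and both were lower in p53 mKO limbs. For both genes the plasmid groups overlapped through control plasmid array 4. It read 9.40 for Runx1 and 12.98 for Chrna1, against 9.37 and 12.79 on p53 plasmid array 1. Dazap2 and Col3a1 were higher in p53 mKO limbs and also rose with the plasmid, by 0.30 (adjusted p = 0.00177) and 0.515 (adjusted p = 0.0116). Foxo1 and Gadd45a had lower means in p53 mKO limbs and also fell with the plasmid, by 0.30 (adjusted p = 0.00168) and 1.20 (adjusted p = 0.029).

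Across all genes, however, the opposite signs were found only with 1 array in the comparison. Over the 10059 genes tested in both experiments, the plasmid difference and the p53 mKO difference had a Pearson correlation of -0.53, as a description across genes, which are not independent. By pair it was -0.74 in pair 1, 0.07 in pair 2 and -0.02 in pair 3, and without control immobile array 1 it was 0.14. The difference between control immobile array 1 and the other control immobile arrays, which involves no p53 mKO limb, had a correlation of 0.66 with the plasmid difference. Of 821 genes that rose at least 1.5-fold with the plasmid and were tested in both, 90.7% were lower in p53 mKO limbs with all arrays and 29.1% without control immobile array 1. Of 782 genes that fell as far, 74.8% were higher with all arrays and 51.0% without it.

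**Figure D5:**
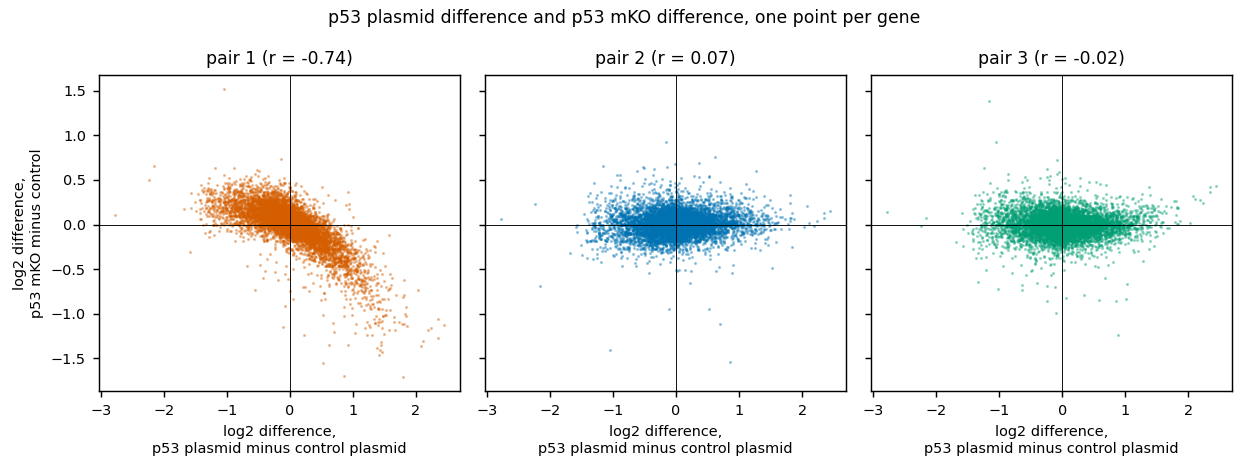
Log2 difference of each of 10059 genes in p53 mKO minus control immobile limbs (vertical axis, 1 panel per pair of same-numbered arrays) against its difference in p53 plasmid minus control plasmid muscle (horizontal axis), with 1 point per gene. The points slope down in pair 1 (r = -0.74) and form a level cloud in pair 2 (r = 0.07) and pair 3 (r = -0.02).

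The remaining lists lay near the middle of all genes or moved with control immobile array 1. ATF4 targets (28 genes, median 0.007), heat shock genes (18 genes, 0.017), polyamine genes (8 genes, -0.007), insulin, IGF and myostatin genes (21 genes, -0.017), and Nfe2l2 and metallothionein genes (17 genes, -0.023) had medians close to 0. At an unadjusted p under 0.05, 2 heat shock genes were higher and 0 lower unpaired, and 4 and 0 paired. Over all genes 1.81% were higher unpaired and 4.32% paired. Without control immobile array 1, 1 heat shock gene was higher and 0 lower, where 1.52% of all genes were higher. Fatty acid genes (26 genes) had a median of -0.013 with all arrays and -0.066 without control immobile array 1, and of 0.075, -0.035 and -0.105 in pairs 1, 2 and 3. Ribosomal protein genes (33 genes) had a median of -0.020 with all arrays and 0.028 without control immobile array 1. Endothelial genes (17 genes) had 0.060 with all arrays and -0.033 without it, and Schwann cell genes (6 genes) had 0.075 and -0.016. G1 cell cycle regulators (18 genes) had -0.038 with all arrays and -0.0058 without it, and genes of calcium handling and ion channels (16 genes) had 0.042 and 0.0025. Slow fibre genes (17 genes) had a median of 0.0067, which was -0.0099 after quantile normalization and 0.060 without control immobile array 1. Among the lists of other cell types, the median was 0.057 for adipocyte genes (12 genes), 0.013 for smooth muscle and pericyte genes (13 genes), 0.025 for tendon genes (8 genes), -0.095 for satellite cell genes (6 genes), -0.027 for erythroid genes (5 genes) and -0.040 for lymphocyte genes (3 genes). Leaving out control immobile array 1 made it 0.053 for adipocyte, -0.023 for smooth muscle and pericyte, -0.047 for tendon, -0.044 for satellite cell, -0.090 for erythroid and -0.010 for lymphocyte genes. With 3 to 33 members each and no member past the adjusted threshold, these lists give no call.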

How the data were processed

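The files hold 1 value per probe and array, deposited by the authors on a log scale that is taken here as log2 from its range (8.21 to 15.61). The authors' normalization, background correction and log base are not given in the sources used here; array medians lay between 8.48 and 8.5. Of 25697 probes, 23978 had 1 gene symbol, 0 several and 1719 none, and each of 16593 genes was represented by its brightest probe. A gene entered a test if 3 or more arrays (4 in the transfection experiment) held it above their 40th percentile, which kept 10842 and 10398 genes.

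Linear models with moderated variances (limma 3.58.1, R 4.3.3), tested on simulated data, comprised 1 fit of the 9 immobilization arrays (unpaired), 1 fit of the 6 immobile arrays with the number in the title as a block (paired), and 1 fit of the 8 transfection arrays. P-values were adjusted over all genes tested (Benjamini-Hochberg, threshold 0.05) and are two-sided. Pairing was taken up because the deviations of same-numbered immobile arrays correlated at 0.62, 0.48 and 0.81, all above 0.1; the labels do not state it. Precision is limited by the number of arrays.

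The rule for named genes took the 10 genes with the smallest p in each direction in both fits, the 15 largest differences without overlap, up to 6 members of each of 38 lists (957 entries), a set of p53, atrophy and denervation genes, and the 15 leading plasmid genes in each direction, 306 genes in all, of which 76 are printed, chosen after their values were seen. The members and lists were chosen with earlier results of these data known. Alternatives were the block, the arrays fitted, the filter, normalization, array weights, the variance prior, the probe and each array or pair left out; testing every probe within the paired fit was chosen after seeing the data.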

Additional observations from a re-analysis of the deposited data

Results flagged for a closer look

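Of 24 groups of 4 transfection arrays looked at, 5 values stood far from the other arrays of their group, a gap that chance gives in about 1 of 20 groups. With p53 plasmid, array 2 was low for Ccng1, at 12.66, and for Uqcrb, at 13.11, and array 1 was low for Runx1, at 9.37. With control plasmid, array 4 was high for Runx1, at 9.40, and low for Esrra, at 11.09. The groups of 3 immobile arrays are too small for this measure.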

How the results depend on the processing

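With limma, 0 genes passed the adjusted threshold under each of the 21 alternatives run, with a lowest adjusted p of 0.718 with the replicate block and 0.0982 with array weights. The number of genes at an unadjusted p under 0.05 moved more. Unpaired it was 196 higher and 123 lower. With the replicate block it was 468 and 262, with array weights 474 and 459, with no filter 295 and 262 (more genes tested), with every probe in the paired fit 637 and 357, and with the 6 immobile arrays alone 132 and 75. Leaving out single arrays gave 153 to 427 higher and 83 to 240 lower, the upper ends without control immobile array 3. Leaving out single pairs from the fit with the replicate block gave 322 to 380 higher and 149 to 312 lower. Counts for the p53 plasmid stayed within 1.5 times under its 14 alternatives.

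Of the printed genes, 11 took the opposite sign under some setting, all of them with an unadjusted p above 0.05 in the unpaired fit. With array weights Fbxo32 was -0.063, Hdac4 -0.061 and Mcm4 0.029. With single arrays left out, Mdm2 ran from -0.26 to 0.14, Ccng1 from -0.063 to 0.17, Gadd45a from -0.48 to 0.060, Bbc3 from -0.13 to 0.017, Fbxo32 from -0.073 to 0.11, Trim63 from -0.20 to 0.0033, Foxo1 from -0.32 to 0.032, Hdac4 from -0.29 to 0.35, Fcgr3 from -0.66 to 0.025, Mcm4 from -0.41 to 0.11 and Rtn4 from -0.052 to 0.68. With single pairs left out of the replicate block, Mdm2 reached 0.045, Ccng1 -0.030, Bbc3 0.025, Fbxo32 -0.12, Trim63 0.030, Hdac4 -0.060 and Mcm4 0.070. Of the list medians, 624 values stayed within 1 SD between pairs or arrays of the reported one and 22 did not. The causes were not tested. With 3 arrays a group, bulk muscle and no probe for Trp53, small differences are not resolved.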
